A study of Rattus norvegicus with 9 samples.

Results

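The probes described here are those for transcripts of ultraconserved elements, which carry names such as uc.47- on the array. All probes whose name starts with "uc." and that are not control spots were taken, which gave 959 of 38804 probes (2.47%). They cover 480 elements numbered between 1 and 483. For 479 of the elements the array holds a plus and a minus probe, and for uc.404 it holds the minus probe only. The names end in a + or - sign that gives the strand, and the common suffix of the probe names is left out below. The sequences and genome positions of the elements were not used here.

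Ultraconserved elements are stretches of genome that are identical between human, mouse and rat. Many are transcribed, from either strand, into RNA that mostly has no open reading frame, and many of those that overlap exons lie in genes of RNA processing, where they include alternatively spliced exons that keep the protein's own level in check. Several of these transcripts have been described as altered in tumours, some after methylation of a nearby CpG island and some as binding partners of miRNAs.

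Whole-lung RNA of male Wistar rats, given as 6 to 8 weeks old, was measured on 9 one-colour Agilent arrays, 3 in each group. The first group, called a COPD model, was exposed to CS for 90 days. CS usually means cigarette smoke in such models, but the labels do not spell it out. The second, also called a COPD model, was exposed to PM2.5 (fine particulate matter) for 90 days, and the control rats inhaled NS, which is not explained, for 90 days. The age is shorter than the exposure, so it cannot be the age at sampling. The labels call the 3 arrays of a group biological replicates. They put the archiving of replicates 1, 2 and 3 at 90, 91 and 92 days in both exposed groups and at 90 days for every control. In whole lung, fewer cells of a type and less RNA per cell cannot be told apart, and no probe with a gene name matched a lung marker, so the tissue was not checked.

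The scan records place the 3 control arrays together on a slide read on a different day from the 3 slides of the exposed arrays. Every comparison against control below is touched by this, since the controls and their slide and scan cannot be told apart. One slide carried both exposures (CS 2 and CS 3 beside PM2.5 1 and PM2.5 2), so these can also be compared within it. The control arrays were also more alike, with a median SD of the uc. probes of 0.137 (log2) against 0.318 in CS and 0.368 in PM2.5, and the fit pools these into 1 spread for all groups. No spot was saturated.

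Most uc. probes were dim. A level below is the log2 signal minus the array's 75th percentile, so that a difference of 1 is a 2-fold difference. After 107 dim probes and 2 with no unflagged spot on some array (uc.481+ and uc.298-) were left out, 850 (88.6%) were tested, against 97.0% of all probes. Signals well above background on each of the 9 arrays were found for 742 of the 959 probes (77.4%) and on 0 arrays for 31, while the first share was 93.9% over the array's full content. The median level of the 850 tested probes was -3.55, with a range of -5.71 to 4.68, and that of all 37643 tested probes was -1.85. The array's 10 E1A control probes are directed at adenoviral transcripts that rat lung does not carry, and had mean levels of -4.07 to -2.25. Whether RNA for them had been added to the samples is not known here, so their range is a reference level only. Only 129 of the tested uc. probes (15.2%) lay above that range, against 59.8% of the other probes, while 465 lay within it and 256 below it. Of the 129, 52 were plus and 77 were minus probes.

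**Figure D1:**
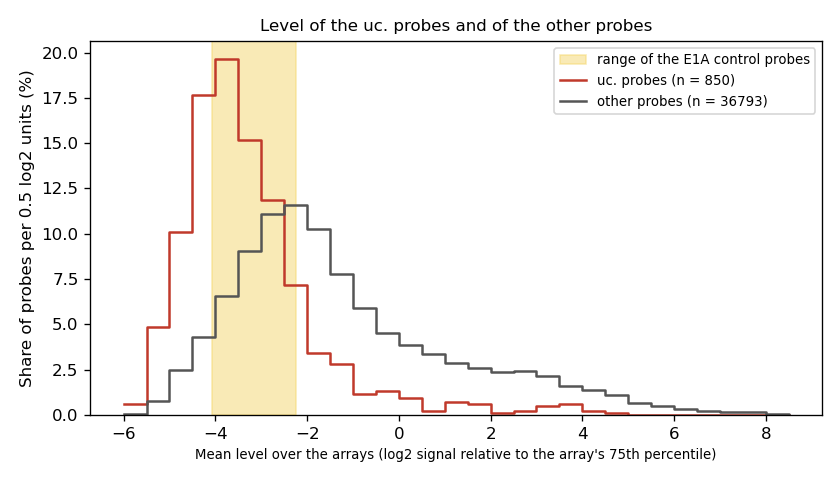
Share of tested probes (%) per 0.5 log2 units of mean level over the 9 arrays, for 850 uc. probes and 36793 other probes; the band marks the range of the 10 E1A probes. The uc. probes peak within the band, and 15.2% of them lie above it.

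Detection varied from array to array. Between 783 (control 1) and 892 (PM2.5 2) uc. probes were well above background on an array. The same arrays were lowest and highest over all 38804 probes, with 37222 and 38195. Control 2 had 787 and control 3 had 872 (all probes: 37235 and 37928), so the control arrays themselves covered most of that range. On all 3 arrays of a group, 804 uc. probes were detected in CS, 828 in PM2.5 and 759 in control. These counts per group were not set against all probes and are not given as a trait of the uc. probes. The probes uc.102-, uc.250+ and uc.82- were not well above background on any control array and were so on all 6 exposed arrays, and uc.100- showed the reverse. The share of all probes with these patterns was not counted, so they are not given as a result about the uc. probes.

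The first comparison asked how the uc. transcripts of CS-exposed lung differed from those of control lung. With this scaling, 400 of 850 uc. probes had an adjusted p below 0.05 in limma's test (Benjamini-Hochberg adjustment over the 37643 probes), 358 of them higher and 42 lower. That share, 47.1%, stands beside 47.2% of all tested probes, of which 38.7% were higher and 8.42% lower. The median change was 0.61 for the uc. probes and 0.45 for all probes, and the median of the E1A probes was 0.72 higher on CS than on control arrays. After quantile normalization, which gives every array the same distribution of signals, 128 uc. probes passed (15.1%, against 24.6% of all probes), 42 higher and 86 lower (all probes: 11.8% and 12.8%), and the median change of both sets was 0.06. A probe is therefore said to have risen or fallen below only where it passed with the same sign under both scalings.

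By that rule 42 uc. probes rose and 42 fell in CS lung, 4.94% in each direction, beside 11.8% and 8.28% of all tested probes. Among other probes of about the same level (the 1000 nearest to each uc. probe), 5.11% rose and 2.78% fell. The rises had a median of 1.20 and a range of 0.62 to 4.55 on the log2 scale. The falls ranged from -3.85 to -0.34 with a median of -0.74. Of the 129 probes above the E1A range, 16 rose (12.4%) and 28 fell (21.7%), against 17.6% and 12.8% of the 22005 other probes above it. Of the 721 at lower levels, 26 rose (3.61%) and 14 fell (1.94%), against 3.54% and 1.69% of the 14788 other probes there. These differences between levels were not tested.

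In PM2.5 lung, 511 uc. probes passed with the first scaling, 464 higher and 47 lower (60.1%, against 56.8% of all probes, of which 47.1% were higher and 9.78% lower). The median change was 0.71 for the uc. probes, 0.51 for all probes and 0.80 for the E1A probes. After quantile normalization 161 passed (18.9%, against 29.7%), 60 higher and 101 lower (all probes: 14.5% and 15.2%). Under both scalings 60 rose (7.06%, against 14.4% of all probes) and 47 fell (5.53%, against 9.6%), while 7.75% of the probes of about the same level rose and 3.34% fell. The rises ranged from 0.50 to 2.54 and the falls from -3.50 to -0.32. Above the E1A range 16 rose and 28 fell of 129, the same counts as in CS lung, against 20.0% and 14.8% of the other probes there. Both comparisons use the same 3 control arrays, so their likeness is not given as a result.

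**Figure D2:**
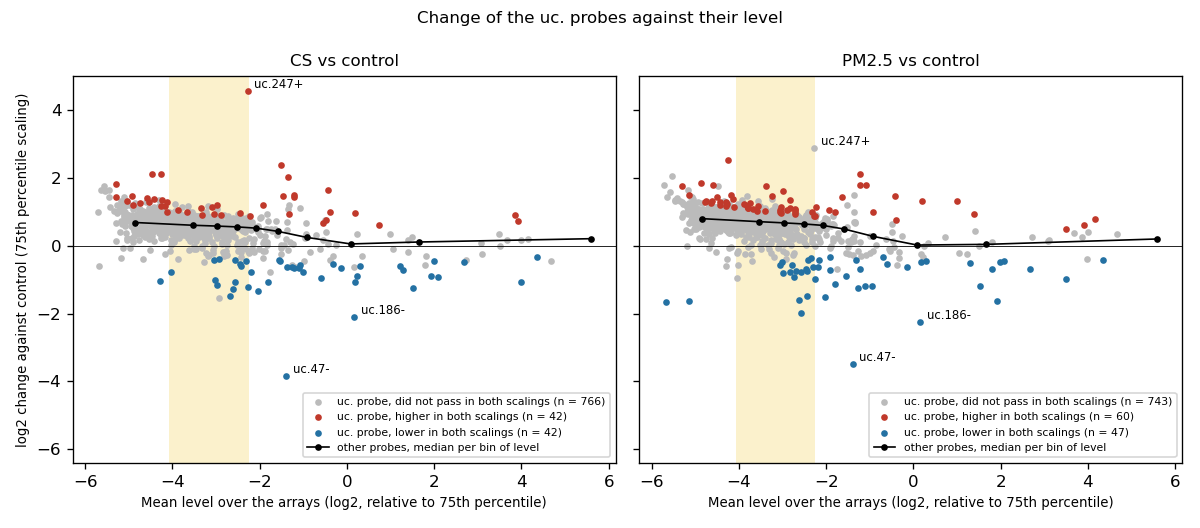
Log2 change of each uc. probe against control (75th percentile scaling) plotted against its mean level, for CS (left) and PM2.5 (right); red and blue points passed under both scalings, the line joins the medians of the other probes in 10 bins of level, and the band is the E1A range. The cloud of dim probes follows the line above 0, and 28 of the falls in each panel lie to the right of the band.

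The fall of uc.47- was the largest among the uc. probes in both comparisons. Its levels were 0.85, 0.94 and 1.37 on control arrays, -2.60, -3.07 and -2.71 on CS arrays and -2.82, -1.93 and -2.57 on PM2.5 arrays. The 6 exposed arrays lay far below the 3 control arrays, with no overlap. The change was -3.85 in CS (SE 0.24, limma adjusted p = 5.11e-05, 14.4-fold) and -3.50 in PM2.5 (SE 0.24, adjusted p = 3.20e-05, 11.3-fold). The means on exposed arrays, -2.79 and -2.44, lie at the level of the E1A probes there, and with normexp background correction the changes passed at -2.60 (6.08-fold) and -2.43. The plus probe of this element did not pass, at 0.29 in CS and 0.32 in PM2.5.

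For uc.186 both strands fell. The minus probe had levels of 1.35, 1.75 and 1.72 on control arrays, -0.47, -0.59 and -0.41 on CS arrays and -0.77, -0.54 and -0.62 on PM2.5 arrays. Exposed and control arrays were well apart, and the exposed arrays lay close together. The change was -2.10 in CS (SE 0.14, adjusted p = 6.49e-05) and -2.25 in PM2.5 (SE 0.14, adjusted p = 1.90e-05). The plus probe fell by 1.06 in CS (adjusted p = 0.00262) and by 1.13 in PM2.5 (adjusted p = 0.00116).

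The element uc.138 overlaps an exon of TRA2B, a splicing regulator that controls its own message through that exon. Its minus probe read -1.07, -1.06 and -1.11 on control arrays, -2.42, -2.57 and -2.23 on CS arrays and -2.98, -2.35 and -2.45 on PM2.5 arrays. All exposed arrays lay below all control arrays. It fell by 1.32 in CS (SE 0.17, adjusted p = 0.00134) and by 1.51 in PM2.5 (SE 0.17, adjusted p = 0.000339). The plus probe fell less, by 0.66 (adjusted p = 0.00826) and 0.63 (adjusted p = 0.00692). The difference between the strands was not tested.

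The minus probe of uc.183 differed in size between the exposures. It read -1.45, -1.55 and -1.64 on control arrays, -2.35, -2.76 and -2.77 on CS arrays and -3.74, -3.51 and -3.35 on PM2.5 arrays. The 3 groups did not overlap, and PM2.5 arrays were lowest. The change was -1.08 in CS (SE 0.16, adjusted p = 0.00184) and -1.99 in PM2.5 (SE 0.16, adjusted p = 5.91e-05), and the difference of 0.91 between CS and PM2.5 passed too (adjusted p = 0.00976). That difference did not pass with normexp background correction (0.25) or within the shared slide (0.86, adjusted p = 0.112). The mean level of uc.183-, -2.57, is within the E1A range.

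**Figure D3:**
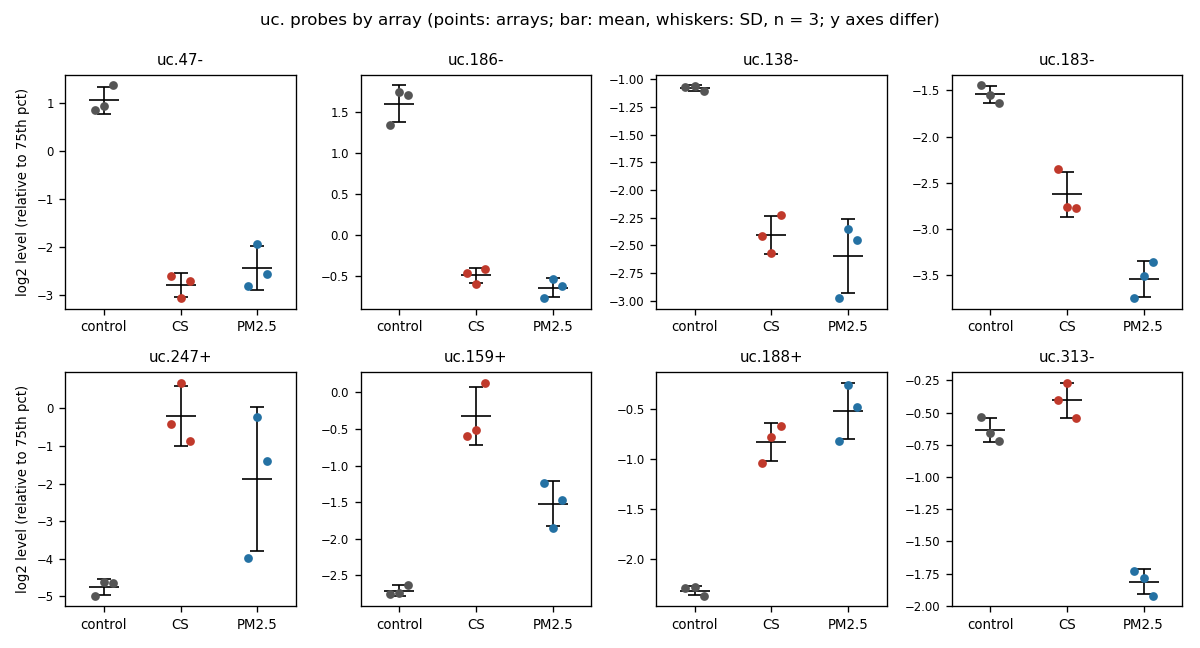
Levels (log2, relative to the array's 75th percentile) of 8 uc. probes on each array, with group means and SD (n = 3); the y axes differ between panels. uc.47-, uc.186-, uc.138- and uc.183- are lower on every exposed array than on every control array, uc.159+ and uc.188+ are higher, and uc.313- is low on PM2.5 arrays.

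The other named falls in CS lung were those of uc.191- (-1.47, adjusted p = 0.00136), uc.390+ (-1.28), uc.203+ (-1.25), uc.113+ (-1.22), uc.239+ (-1.17) and uc.471+ (-1.08). Of these, uc.203+ and uc.471+ lie above the E1A range, and uc.471+ is among the brightest uc. probes with a mean level of 3.99. In PM2.5 lung they were uc.475+ (-1.62, adjusted p = 0.00101), uc.390+ (-1.61), uc.210+ (-1.47), uc.376+ (-1.23), uc.100- and uc.100+. The last pair was not well above background on any PM2.5 array. Both were tested only through the control arrays, where they were higher than on PM2.5 arrays, so the filter favoured that direction. A probe in this state has only a bound there, taken against the dimmest signal well above background on those arrays, which puts uc.100+ at least 1.56-fold and uc.100- at least 1.22-fold lower in PM2.5. Of the pair, uc.100+ no longer passed without PM2.5 1 or without control 1, and the change of uc.100- was 0.0079 with normexp background correction.

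The largest rise in CS lung was that of uc.247+, a dim probe on control arrays. It read -4.99, -4.61 and -4.64 on control arrays, -0.42, 0.68 and -0.86 on CS arrays and -3.99, -0.23 and -1.41 on PM2.5 arrays. The CS arrays lay well above the control arrays, and the PM2.5 arrays were spread over almost the whole range. The rise in CS was 4.55 (SE 0.80, adjusted p = 0.00372, 23.3-fold). The control mean of -4.75 lies just below the range of the E1A probes on control arrays (-4.73 to -2.64). The rise was 3.87-fold with normexp (adjusted p = 0.0382) and did not pass with the slide as a random block (adjusted p = 0.0664). The change of 2.87 in PM2.5 had an adjusted p of 0.0157 with the first scaling and of 0.0623 after quantile normalization.

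The plus probe of uc.159 also rose in CS lung. Its levels were -2.75, -2.74 and -2.63 on control arrays, -0.59, -0.51 and 0.13 on CS arrays and -1.24, -1.85 and -1.47 on PM2.5 arrays. The groups did not overlap, with PM2.5 between control and CS. The change in CS was 2.38 (SE 0.22, adjusted p = 0.000285), and CS exceeded PM2.5 by 1.20 (adjusted p = 0.0122). For PM2.5 the change was 1.19, with an adjusted p of 0.0807 after quantile normalization.

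The plus probe of uc.188 rose under both exposures. It read -2.29, -2.28 and -2.36 on control arrays, -1.04, -0.77 and -0.67 on CS arrays and -0.82, -0.26 and -0.47 on PM2.5 arrays. All 6 exposed arrays were above the control arrays, and CS and PM2.5 overlapped. The change was 1.48 in CS (SE 0.16, adjusted p = 0.00068) and 1.79 in PM2.5 (SE 0.16, adjusted p = 0.000113). The minus probe of this element did not pass, at 0.17 and 0.36.

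Among the other named rises, uc.378- (2.03, adjusted p = 0.00453) and uc.356+ (1.65, adjusted p = 0.00179) in CS lung and uc.69- (2.12, adjusted p = 0.000861) and uc.131- (1.77, adjusted p = 0.00078) in PM2.5 lung lie above the E1A range. The named rises of uc.198- (2.11) and uc.379+ (2.10) in CS lung, and those of uc.379+ (2.54), uc.423+ (1.84), uc.369+ (1.78), uc.359- (1.76), uc.314+ (1.62) and uc.469- (2.84-fold) in PM2.5 lung, lie within or below it. Of the control arrays only 2 of 3 measured uc.198- well above background, and only 1 of 3 did so for uc.379+, uc.423+ and uc.369+, so the sizes of these rises are uncertain. For probes not well above background on any control array the rise is a bound. In CS, uc.76- was at least 2.35-fold and uc.102- at least 2.38-fold higher, and in PM2.5 uc.250+ was at least 2.02-fold higher. These probes, and those above with fewer than 3 such control arrays, were tested only through groups in which they were high. The filter thus favoured the direction of their calls.

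Few of these calls held under every other setting tried, apart from the filter that keeps only probes detected on all 9 arrays. For CS these were the falls of uc.186- and uc.47-, with 0 rises (all tested probes: 0.356% lower and 0.0584% higher). For PM2.5 they were the rise of uc.188+ and the falls of uc.186-, uc.138-, uc.313-, uc.376+, uc.47- and uc.183- (all tested probes: 1.32% in each direction). When the 3 control arrays, which share a slide, were averaged and counted as 1 sample, 4 uc. probes passed in CS (all probes: 0.441%) and 25 in PM2.5 (all probes: 3.78%). With normexp background correction 18 passed in CS (all probes: 6.34%) and 21 in PM2.5 (all probes: 8.13%). Of the named changes, those of uc.247+, uc.159+, uc.356+, uc.188+, uc.475-, uc.47-, uc.186-, uc.138-, uc.203+ and uc.471+ in CS lung passed with it, and in PM2.5 lung those of uc.69-, uc.188+, uc.131-, uc.47-, uc.186-, uc.183-, uc.475+, uc.138- and uc.376+. Of all 57 named changes, 56 were smaller in size with it: for uc.138- the changes were then -0.73 in CS and -0.77 in PM2.5, and for uc.183- they were -0.54 and -0.79.

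The comparison of CS with PM2.5 asked where the exposures differed. Its differences are between exposed arrays only, but the spread behind its tests is pooled with that of the control arrays. With the first scaling 30 uc. probes passed, 18 higher and 12 lower in CS (3.53%, against 5.88% of all probes, with 3.13% higher and 2.75% lower). Under both scalings 15 were higher in CS (1.76%, against 3.09%) and 7 were lower (0.824%, against 2.46%). Among probes of about the same level 1.06% were higher and 0.908% lower. Without 1 control array 18 to 20 uc. probes passed (all probes: 3.54% to 3.70%), and with the controls as 1 sample 6 passed (all probes: 1.66%). Same-numbered CS and PM2.5 arrays share their stated day of archiving, and with the replicate number as a block 17 passed (all probes: 3.2%). The median difference of the uc. probes was -0.12, with quartiles of -0.27 and 0.06.

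The largest difference was that of uc.475-. The element lies within OGT, the gene of the enzyme that adds N-acetylglucosamine to nuclear and cytosolic proteins, and a transcript of it has been described as induced by hypoxia. The minus probe read -0.43, -0.09 and -0.69 on CS arrays, -2.49, -1.73 and -2.12 on PM2.5 arrays and -1.95, -1.81 and -1.87 on control arrays. Only the CS arrays stood apart, and the PM2.5 arrays surrounded the control arrays. CS exceeded PM2.5 by 1.71 (SE 0.21, adjusted p = 0.00183) and control by 1.48 (SE 0.21, adjusted p = 0.00178). Within the shared slide the difference between the exposures was 1.72 (adjusted p = 0.0268).

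The minus probe of uc.313 was low on PM2.5 arrays. It read -1.73, -1.79 and -1.92 there, -0.40, -0.27 and -0.54 on CS arrays and -0.54, -0.66 and -0.72 on control arrays. The PM2.5 arrays lay below all others. CS exceeded PM2.5 by 1.41 (SE 0.12, adjusted p = 0.000252), and by 1.35 within the shared slide (adjusted p = 0.0182). Of the uc. probes, uc.475- and uc.313- passed in this comparison under every setting other than the stricter filter, beside 0.255% of all probes higher and 0.47% lower.

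The probes uc.36+ (1.45, adjusted p = 0.000989) and uc.210+ (1.28, adjusted p = 0.00333), both within the E1A range, and the bright probe uc.455- (0.99, adjusted p = 0.00439) were also higher in CS than in PM2.5. The last read 3.92, 3.72 and 3.84 on CS arrays, 3.14, 2.66 and 2.73 on PM2.5 arrays and 3.82, 3.79 and 3.86 on control arrays. It was the PM2.5 arrays that were lower, without overlap. Further differences of the same sign were those of uc.272- (1.14), uc.80- (0.88) and uc.76- (0.85), of which uc.80- did not pass without CS 1 or without CS 3, nor with the replicate block (adjusted p = 0.0577). Only 1 of 3 PM2.5 arrays measured uc.76- well above background, so the size of its difference is uncertain. It was tested only through the CS arrays, where it was high.

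Lower in CS than in PM2.5 were uc.359- (-1.39, SE 0.21, adjusted p = 0.00504), uc.185- (-1.13), uc.420- (-0.79), uc.285+ (-0.73), uc.471+ (-0.69), uc.144- (-0.69) and uc.141- (-0.57). For uc.359- the levels were -3.55, -3.94 and -3.70 on CS arrays, -2.74, -2.41 and -1.86 on PM2.5 arrays and -4.18, -4.06 and -4.05 on control arrays. The PM2.5 arrays were highest, and the difference was -1.25 within the shared slide (adjusted p = 0.0336). The last 5 of the 7 had adjusted p between 0.0306 and 0.0476 and did not pass in 7 or 8 of the 9 fits that leave out an array, nor with the replicate block (adjusted p between 0.0534 and 0.105), and uc.185- did not pass without CS 1 or without PM2.5 1. On the 4 arrays of the shared slide alone, 5 uc. probes passed (0.588%, against 1.02% of all probes), namely uc.36+, uc.475-, uc.313-, uc.359- and uc.30-. With normexp uc.475- (1.05), uc.313- (0.89), uc.455- (0.96) and uc.185- (-1.05) passed of the 17 named.

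**Figure D4:**
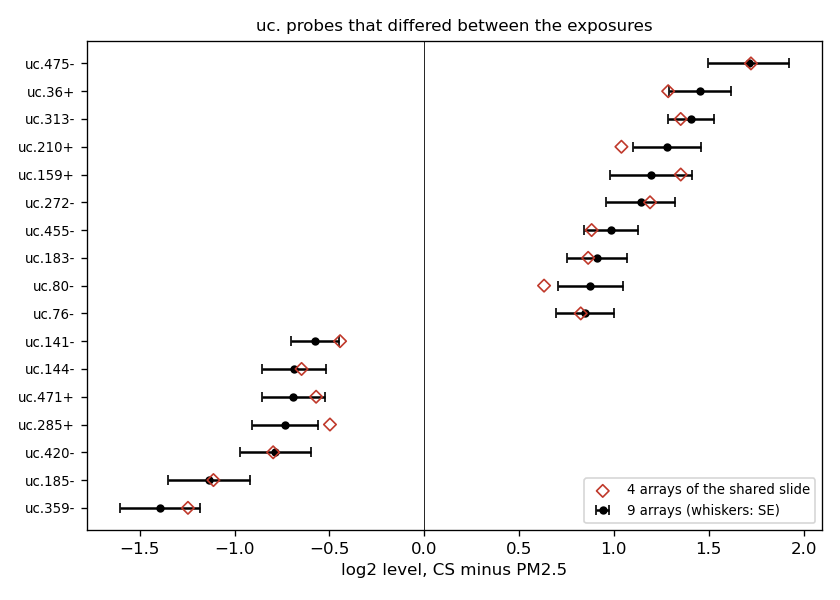
Difference in log2 level between CS and PM2.5 for the 17 named uc. probes, from the fit of 9 arrays (black points, whiskers SE) and from the 4 arrays of the shared slide (red diamonds). On the shared slide uc.475-, uc.36+, uc.313- and uc.359- passed, and the sign of all 17 there is fixed by the choice of probes whose arrays do not overlap.

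The strands of an element could be compared for 383 elements with both probes tested, as changes and not as levels, since probes differ in brightness. The median absolute difference between the changes of the plus and the minus probe was 0.36 log2 units in CS against control, 0.38 in PM2.5 against control and 0.25 in CS against PM2.5. It exceeded 1 for 51, 53 and 12 elements. In CS lung both strands rose for 0 elements and both fell for 3 (uc.138, uc.186 and uc.443). In PM2.5 lung both rose for 4 and both fell for 7. Most calls were on 1 strand: in CS 30 of the 383 elements passed on the plus strand only and 39 on the minus strand only, and in PM2.5 29 and 44. Few uc. probes passed by this rule: 4.94% rose and 4.94% fell in CS (all probes: 11.8% and 8.28%). In PM2.5 it was 7.06% and 5.53% (all probes: 14.4% and 9.6%). More minus than plus probes lay above the E1A range (77 against 52). These strand counts were not tested and are not given as a result about strands.

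Opposite changes were found for few elements, and with normexp background correction none of them kept both calls. Of their probes only uc.475- in CS lung (adjusted p = 0.0278) and uc.136+ in PM2.5 lung (adjusted p = 0.044) passed with it. In CS lung the plus probe of uc.475 fell by 0.90 (adjusted p = 0.0165) while its minus probe rose by 1.48. The plus probe read 2.84, 2.78 and 2.67 on control arrays, 1.86, 1.68 and 2.04 on CS arrays and 1.59, 0.56 and 1.29 on PM2.5 arrays. It was lower on every exposed array, unlike the minus probe, and its fall in CS did not pass without control 1 or without control 2. For uc.257 the plus probe rose by 1.11 (adjusted p = 0.00456) and the minus probe fell by 0.44 (adjusted p = 0.027) in CS lung, where the fall did not pass without CS 2 or without any 1 of the 3 control arrays.

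In PM2.5 lung the plus probes of uc.128 (1.27), uc.136 (1.00) and uc.477 (1.18) rose while their minus probes fell, at -0.49, -0.77 and -0.42. The fall of uc.128- did not pass without PM2.5 2, control 1 or control 2, and that of uc.477- did not without PM2.5 1, PM2.5 3 or any 1 of the control arrays. Only uc.136+ of these 6 probes lies above the E1A range, and it did not pass after median centring (adjusted p = 0.0724). Between the exposures, uc.420, the element with the brightest uc. probe, had a plus probe that was 0.64 higher (adjusted p = 0.0145) and a minus probe that was 0.79 lower in CS than in PM2.5 (adjusted p = 0.0417). The difference of the plus probe did not pass without CS 3, with the replicate block (adjusted p = 0.0635) or on the shared slide (adjusted p = 0.215). That of the minus probe passed in only 1 of the 9 fits that leave out an array. The plus probe read 4.35, 4.24 and 4.53 on CS arrays, 3.80, 3.79 and 3.60 on PM2.5 arrays and 3.49, 3.44 and 3.45 on control arrays. The CS arrays were highest, without overlap. The minus probe read 4.25, 4.26 and 4.29 on CS arrays, 5.49, 4.65 and 5.02 on PM2.5 arrays and 4.75, 4.72 and 4.67 on control arrays, so that CS was lowest and PM2.5 surrounded control.

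**Figure D5:**
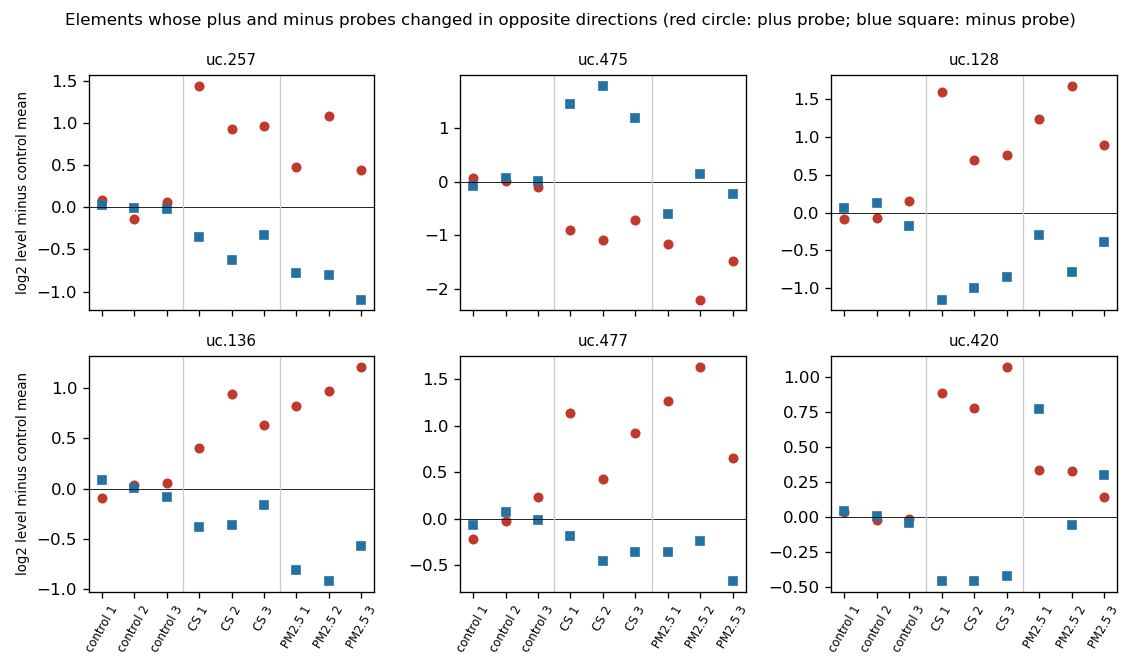
Levels of the plus (red circles) and minus (blue squares) probes of 6 elements on each array, as log2 difference from the mean of the control arrays; the y axes differ. In uc.475 the minus probe is high on CS arrays only, while the plus probe is low on all 6 exposed arrays.

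Of elements with a described role, 28 were listed, with 56 probes of which 49 were tested and 8 lay above the E1A range. Both strands of each were listed, so a described transcript need not be of the strand of the probe named. In CS lung 28 of the 49 passed with the first scaling (all probes: 47.2%), and under both scalings 1 rose (uc.475-) and 4 fell (all probes: 11.8% and 8.28%). The falls were those of uc.138-, uc.138+, uc.475+ and uc.48-, the last at -0.96 (SE 0.16, adjusted p = 0.00305). Transcripts of uc.48 have been described in signalling through the ATP receptor P2X7. The plus probe of this element did not pass in CS lung (-0.18, adjusted p = 0.315). In PM2.5 lung 32 of the 49 passed with the first scaling (all probes: 56.8%), and 3 rose and 4 fell under both (all probes: 14.4% and 9.6%). The fall of uc.48- there (-0.53) did not pass without PM2.5 2, control 1 or control 2. The rises were those of uc.83+ (1.45, adjusted p = 0.000644), described in lung adenocarcinoma, uc.329+ (1.16, adjusted p = 0.00193), whose deletion left mice viable, and uc.173+ (1.32, adjusted p = 0.0363), described in renewal of the intestinal epithelium. The mean level of uc.83+ (-3.24) lies within the E1A range and that of uc.329+ (-4.30) below it. The minus probe of uc.83 was not among the rises, with means of -2.16 on PM2.5 and -2.37 on control arrays. The levels of uc.173+ were 1.62, 1.19 and 2.49 on PM2.5 arrays, -0.36, 1.43 and 1.26 on CS arrays and 0.43, 0.40 and 0.50 on control arrays. The rise did not pass without PM2.5 1, PM2.5 3 or any 1 of the control arrays. CS arrays lay on both sides of the control arrays, and CS did not pass (0.33, adjusted p = 0.547). Between the exposures, 1 of the 49 passed under both scalings (uc.475-). The median change of the 49 after quantile normalization was 0.08 in CS and 0.06 in PM2.5, beside 0.06 and 0.07 over all probes tested. For uc.339 and uc.454, described in non-small-cell lung cancer, 0 of 4 probes passed under both scalings in any comparison.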

How the data were processed

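The deposited scanner files hold intensity on a linear scale, read with Agilent Feature Extraction and, per the file headers, background-subtracted within each array and not normalized between arrays. They also hold other values, flags of 0 or 1 set per spot by the scanner software. The authors' deposited table holds log2 values that are quantile-normalized by their distribution and served as an alternative.

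Flagged and control spots were left out and spots of a probe averaged on the log2 scale. A probe was tested where at least 1 group had it well above background on its 3 arrays. One two-sided limma fit (version 3.58.1, lmFit and eBayes in R 4.3.3) took all 9 arrays and 37643 probes, with a mean per group. The 75th percentile scaling was the main setting. The script was tested on simulated data. P-values measure the spread between these arrays, whose number limits precision.

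Named per comparison are the 10 rises and 10 falls with the largest change that passed under both scalings without overlap of arrays (all where fewer), elements with opposite strands (at most 6), and listed elements with a described role; uc.30-, uc.100- on detection, uc.82-, and the brightest probes were chosen after their values were seen. The members and lists were chosen with earlier results of these data known. Same-numbered CS and PM2.5 arrays share a stated archiving day, but same-numbered arrays did not deviate together (correlations of -0.45 to 0.18), so the replicate block stayed an alternative. Alternatives were quantile normalization, median centring, normexp with an offset of 50, the authors' values, other filters, eBayes with a trend, replicate or slide as a block, the shared slide, controls as 1 sample and leaving out arrays.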

Additional observations from a re-analysis of the deposited data

Results flagged for a closer look

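For 22 uc. probes the effects of the exposures differed, by limma's test of CS against PM2.5 itself under both scalings. Of these, 15 were higher in CS (1.76%, against 3.09% of all probes) and 7 were lower (0.824%, against 2.46%). The CS and PM2.5 arrays did not overlap for any of them. The same held for every uc. probe that passed under both scalings against control, so it adds nothing to the calls. Listed here are the 17 named above, which are the higher probes with the largest differences and all 7 lower ones. The difference (CS minus PM2.5, log2) was 1.71 for uc.475-, 1.45 for uc.36+, 1.41 for uc.313-, 1.28 for uc.210+, 1.20 for uc.159+, 1.14 for uc.272-, 0.99 for uc.455-, 0.91 for uc.183-, 0.88 for uc.80- and 0.85 for uc.76-. It was -1.39 for uc.359-, -1.13 for uc.185-, -0.79 for uc.420-, -0.73 for uc.285+, -0.69 for uc.471+ and uc.144- and -0.57 for uc.141-. For uc.183-, uc.36+, uc.210+, uc.272-, uc.80- and uc.359- the mean level lies within the range of the E1A probes, and for uc.76- it lies below it. Groups of 3 arrays were too small for a check of single arrays that stand apart.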

How the results depend on the processing

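The count of uc. probes that passed moved by over 1.5 times under 29 of 65 alternatives. The percentage in brackets is the share of all probes that passed. In CS against control (400) it was 128 after quantile normalization (24.6%) and with the authors' values (24.8%), 168 after median centring (24.2%), 18 with normexp (6.34%), 33 with the slide as a random block (6.3%), 4 with the controls counted as 1 sample (0.441%) and 5 with that and quantile normalization (1.46%). Leaving out an array gave 162 to 538, with 216 without CS 1 (29.8%) or CS 3 (27.5%), 162 without control 1 (21.3%) and 178 without control 2 (22.8%). In PM2.5 against control (511) the same settings gave 161 (29.7%), 161 (29.8%), 260 (33.3%), 21 (8.13%), 168 (21.0%), 25 (3.78%) and 29 (6.07%), and leaving out an array gave 300 to 658, with 300 without control 1 (35.2%) and 332 without control 2 (37.3%). In CS against PM2.5 (30), normexp gave 4 (1.35%), the shared slide 5 (1.02%), controls as 1 sample 6 (1.66%) and that with quantile normalization 16 (3.5%), and leaving out an array gave 17 to 45, with 18 without CS 1 (3.74%), 17 without CS 3 (4.51%), 19 without control 1 (3.58%) and 18 without control 2 (3.54%). The causes of these shifts were not tested. The fall of uc.100- in PM2.5 turned to 0.0079 with normexp.

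The 57 named results had to pass under quantile normalization, which the authors' values share. Of them, 52 kept direction and call after median centring, 51 with the replicate block, 49 with the slide as a random block, 24 with the controls as 1 sample and 23 with normexp. Of the 17 between CS and PM2.5, 9 did so with the slide as a fixed block and 4 on the shared slide.

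With the replicate number as a block the count was 277 in CS against control (33.1%), 423 in PM2.5 against control (46.8%) and 17 in CS against PM2.5 (3.2%). Same-numbered arrays deviated together with correlations of -0.45 to 0.18. Of the named results only 6 lost their call with it, all between CS and PM2.5 and given above.

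The limits shown here are the background correction, the scaling and the slides. Most uc. probes lay within or below the range of the E1A probes, and control arrays share no slide with exposed arrays.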
